A study of Mus musculus with 12 samples.

Results

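Mitochondrial DNA entered the deposited chromatin table through 7 regions, all rows of the enhancer table that lie on the mitochondrial chromosome (chrM), taken at every width, out of 406518 rows. No row of the promoter table of 43511 rows lay on chrM. After merging rows that overlap, the 7 rows formed 4 loci that together covered 514 bp. The libraries came from ATAC-seq, which marks open DNA by the cuts of a transposase. The tissue was liver, taken from C57BL/6N males without genetic change (wild type) at 19 to 20 weeks of age. Mice were dosed by gavage over 4 days with distilled water (control), 10 mg/kg atorvastatin, a cholesterol-lowering statin, or 100 mg/kg pregnenolone 16α-carbonitrile (PCN), an agonist of the nuclear receptor PXR, and then went without food for 12 h. All groups were on a standard chow diet, held 9 to 10 mice and gave 4 libraries each, and whether a library stands for a single mouse is not given in the labels. The p-values therefore measure only the spread between libraries, which may be technical.

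Mitochondrial DNA is a small circle present in many copies per cell, and hepatocytes hold many mitochondria. It carries no nucleosomes and is packaged by the protein TFAM. Its main noncoding stretch, the control region with the displacement loop (D-loop), holds the promoters of both strands and the start of heavy-strand replication. A short noncoding stretch between tRNA genes holds the origin of the light strand. ATAC-seq on nuclei commonly also captures mitochondrial DNA, and many pipelines remove it before counting. Whether that was done here is not given in the sources used here.

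Positions are those of the deposited table in build mm10, which does not say whether starts count from 0 or 1, and genes are from the RefSeq annotation of the same assembly (GRCm38.p6), which lists 37 mitochondrial genes: 13 protein-coding, 2 for rRNA and 22 for tRNA. One pair of rows, chrM:1942-2024 (82 bp) and chrM:1942-2026 (84 bp), lay inside mt-Rnr2, the gene of the large ribosomal RNA (chrM:1094-2675). A single row, chrM:4866-4984 (118 bp), covered the end of ND2, a subunit gene of respiratory complex I (chrM:3914-4951), and the start of TrnW, the tRNA gene for tryptophan (chrM:4950-5016). Another pair, chrM:5106-5226 (120 bp) and chrM:5144-5226 (82 bp), ran from TrnN, the tRNA gene for asparagine (chrM:5089-5159), across a gap of 32 bp without an annotated gene (chrM:5160-5191) into TrnC, the tRNA gene for cysteine (chrM:5192-5257). That gap is where textbooks place the light-strand origin. The last pair, chrM:16027-16219 (192 bp) and chrM:16032-16214 (182 bp), overlapped no annotated gene. It began 605 bp past the end of TrnP, the last annotated gene (chrM:15356-15422), which places it in the control region. Exonic or intronic status does not apply to the control-region rows. The other 5 rows lay in genes or the gap between them, and mouse mitochondrial genes have no introns. No sequence of these rows is shown, since no mitochondrial sequence was used here.

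On average over the 12 libraries, the chrM rows were among the most covered of the whole table. In mean CPM (counts per 1000000 counts of the table, here the enhancer table), the control-region rows of 192 and 182 bp stood 1st and 2nd of 406518, at 188 and 187 CPM. The 120-bp row from TrnN to TrnC stood 9th at 68.7 CPM and the ND2 row 13th at 50.7 CPM. The remaining 82-bp row from TrnN to TrnC stood 17th, and the mt-Rnr2 rows of 84 and 82 bp stood 19th and 21st. These ranks are not per base pair, and rows of a pair share most of their reads. Nor do they hold in each library: the 84-bp mt-Rnr2 row ranked 5th in atorvastatin 1 but 15600th in atorvastatin 3. The ND2 row ranked 4th in control 2 but 5376th in control 3. For the 120-bp row from TrnN to TrnC the rank was 3rd in control 2 but 2100th in atorvastatin 3. By width, 6 of the 7 rows had one of the 12 widths that account for 406433 rows of the table. Each of these widths is held by rows whose relative counts are on average highest in a different library. For none of the 6 chrM rows was that library the one with the highest CPM. The 192-bp row, for example, has the width that goes with control 3, where it was lower than in the other controls.

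Total counts of the enhancer table ran from 1256648.5 to 13078975.5 per library, and those of the promoter table from 1679054 to 15336000.5. As a check of the tissue, the promoters of 6 hepatocyte markers (Alb, Apoa1, Ttr, Serpina1a, Cps1 and Tat) had a higher mean than the markers of each of 7 other cell types in 12 of 12 libraries. Apoa1 was the highest of the 6 in every library, and without it the hepatocyte mean was the highest in 10 of 12. Alb had 3.38 CPM in control 3, against 23.2 to 47.1 in the other controls. Control 3 and atorvastatin 3 stood apart. Across nuclear enhancer rows their median correlations with the other libraries were 0.384 and 0.0692, against 0.723 to 0.860 in the other 10. Results are therefore also given without both, an alternative chosen with these values known.

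The share of mitochondrial counts varied widely between libraries of the same group. The 7 rows held 344.5 to 6183 counts per library, 0.0146% to 0.120% of the enhancer total, an 8.20-fold range. In control libraries 1 to 4 the share was 0.0808%, 0.120%, 0.0225% and 0.116%. In atorvastatin libraries 1 to 4 it was 0.109%, 0.0170%, 0.0146% and 0.0332%, and in PCN libraries 1 to 4 it was 0.104%, 0.0298%, 0.0551% and 0.0457%. Control 3 was low among the controls, whereas atorvastatin 1 and PCN 1 were high in their groups and lay within the range of the other controls, so that all groups overlapped. The widest 95% Wilson interval relative to its value, that of control 3, ran from 0.0202% to 0.0250%, far narrower than the range over libraries. Some intervals overlapped, such as those of control 2 (0.116% to 0.123%) and control 4 (0.110% to 0.122%). These intervals cover counting error only, and since rows of a pair share reads they are too narrow.

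**Figure D1:**
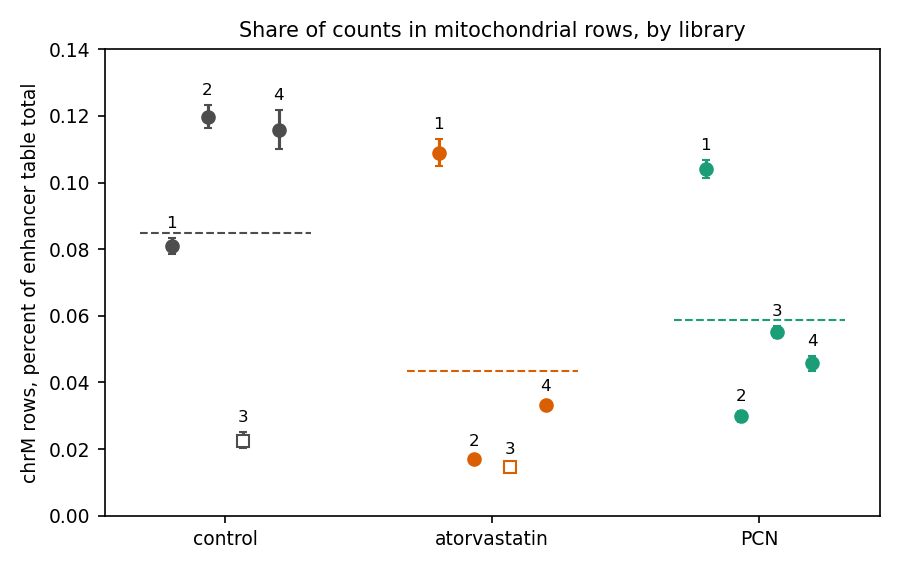
Counts in the 7 chrM rows as a percent of the enhancer table total (y axis) for each library, numbered by replicate, in the control, atorvastatin and PCN groups (x axis); bars are 95% Wilson intervals, dashed lines are group means, and open squares are control 3 and atorvastatin 3. Libraries spread from 0.0146% to 0.120%, and every group overlaps the others.

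The drug groups had lower mean shares than control, but neither difference passed the test. The mean share was 0.0847% ± 0.0450 (SD, n = 4) in control, 0.0435% ± 0.0444 (SD, n = 4) with atorvastatin and 0.0587% ± 0.0320 (SD, n = 4) with PCN. On the log2 scale atorvastatin differed from control by -1.20 ± 0.87 (SE; two-sided exact permutation test, p = 0.229, adjusted p = 0.514 over 3 comparisons). PCN differed from control by -0.42 ± 0.68 (exact p = 0.514, adjusted p = 0.514). In each drug group 1 of 4 libraries lay above the control mean of log2 values. PCN differed from atorvastatin by 0.78 ± 0.76 (exact p = 0.371, adjusted p = 0.514). With 4 libraries against 4 the smallest p this test can give is 0.0286.

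Without control 3 and atorvastatin 3 the control mean was 0.105% ± 0.0214 (SD, n = 3) and the atorvastatin mean 0.0531% ± 0.0491 (SD, n = 3). The log2 differences were then -1.39 for atorvastatin against control (exact p = 0.2, adjusted p = 0.3), -0.97 for PCN against control (exact p = 0.114, adjusted p = 0.3) and 0.42 for PCN against atorvastatin (exact p = 0.686, adjusted p = 0.686). Single libraries moved these differences by more than 1.5 times. The PCN difference from control went from -0.42 to -0.97 without control 3 and to -0.75 without PCN 1, and to -0.17, -0.19 and -0.15 without control 2, control 4 or PCN 2. Atorvastatin against control went from -1.20 to -1.81 without atorvastatin 1 (exact p = 0.114), and PCN against atorvastatin from 0.78 to 1.39 (exact p = 0.114). The last difference fell to 0.49, 0.42 and 0.45 without atorvastatin 2, atorvastatin 3 or PCN 1. In bulk liver, fewer cells of a type and less mitochondrial DNA per cell cannot be told apart, and a share also falls where nuclear counts rise. The libraries were made from nuclei, and how much mitochondrial DNA came along with them was not measured. The share is therefore not a measure of mitochondrial DNA in the liver.

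The control region carried over 50% of the mitochondrial counts in 10 of 12 libraries, or in 8 of 12 when a single row per locus is counted, and its 192-bp row had the widest range of CPM. Its CPM in control libraries 1 to 4 was 245, 395, 48.0 and 380.4, from 1350.5, 1548, 73.5 and 478 counts. With atorvastatin it was 327, 32.2, 49.6 and 102, from 872.5, 420.5, 401 and 907 counts. With PCN it was 288, 89.7, 146 and 151, from 1711.5, 381.5, 978.5 and 527.5 counts. Control 3 was low, atorvastatin 1 was high and the groups overlapped. The row ranked 1st of the whole table in 8 libraries: control 1, 2 and 4, atorvastatin 1 and all 4 PCN libraries. It ranked 7th in atorvastatin 3 and in atorvastatin 4, 99th in atorvastatin 2 and 184th in control 3.

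The loci in genes followed a similar order of libraries. The 120-bp row from TrnN to TrnC had 80.0, 110.1, 35.6 and 106 CPM in control, 117, 31.1, 12.2 and 31.4 CPM with atorvastatin, and 159, 34.5, 60.2 and 47.4 CPM with PCN. Its highest value was that of PCN 1, above each control, and its lowest that of atorvastatin 3. The ND2 and TrnW row had 57.9, 85.1, 22.9 and 95.5 CPM in control, 89.8, 16.5, 10.8 and 28.3 CPM with atorvastatin, and 74.7, 26.9, 63.8 and 36.4 CPM with PCN. The 84-bp mt-Rnr2 row had 64.2, 71.6, 23.2 and 64.5 CPM in control, 79.2, 19.4, 7.67 and 23.4 CPM with atorvastatin, and 63.4, 17.4, 47.5 and 20.7 CPM with PCN. At each of these loci control 3 was the lowest control, atorvastatin 1 was the highest of its group, and all groups overlapped. Of the inner rows, the 82-bp row from TrnN to TrnC ran from 8.66 CPM in atorvastatin 3 to 106 CPM in PCN 1, the 82-bp mt-Rnr2 row from 7.92 CPM in atorvastatin 3 to 79.0 CPM in atorvastatin 1, and the 182-bp control-region row from 31.8 CPM in atorvastatin 2 to 393 CPM in control 2.

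Row by row, the quasi-likelihood test of edgeR, adjusted by Benjamini-Hochberg over 182115 tested rows, called no chrM row in any comparison. All 7 rows passed the low-count filter. In PCN against control 0 of 7 were called, beside 0% of all rows (percent of all tested rows at an adjusted p under 0.05), and 0 of 7 had an unadjusted p under 0.05, beside 1.93% of all rows. All 7 fold changes were below 0, as were 38% of all rows. They ran from -0.67 to -0.10 with a median of -0.58, beside a median of 0.17 over all rows. The median ran from -0.95 to -0.27 with 1 library left out. Without control 2, control 4, PCN 2 or PCN 4, 2 of 7 rows, those from TrnN to TrnC, lay above 0. Beside them, 63.2% to 68.0% of all rows lay above 0 in these fits. The 192-bp control-region row differed by -0.67 ± 0.57 (SE, log2) and the 120-bp row from TrnN to TrnC by -0.12 ± 0.51, each with an adjusted p of 1.00 in edgeR.

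In atorvastatin against control edgeR again called 0 of 7, beside 0% of all rows, and 0 of 7 had an unadjusted p under 0.05, beside 2.39% of all rows. All 7 fold changes were below 0, as were 41.6% of all rows, from -0.96 to -0.70 with a median of -0.74, beside 0.12 over all rows. The control-region row differed by -0.96 ± 0.57, with a 95% interval from -2.08 to 0.17. These values depend on single libraries. Without atorvastatin 1, 7 of 7 rows had an unadjusted p under 0.05, beside 2.36% of all rows, with a median of -1.58 and none called. Without control 3, 3 of 7 did, beside 2.95%, with none called. With any 1 library left out the 7 rows stayed below 0, from -1.92 to -0.42.

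PCN against atorvastatin gave 0 of 7 called, beside 0% of all rows, and 0 of 7 at an unadjusted p under 0.05, beside 0.465%. All 7 lay above 0, as did 55.4% of all rows, from 0.14 to 0.64 with a median of 0.29, beside 0.06 over all rows. This too rested on single libraries: 6 of 7 lay below 0 without PCN 1, beside 45.5% of all rows, and 4 of 7 without atorvastatin 2, beside 43.8%. Below 0 were 2 of 7 without atorvastatin 3, beside 49.8% of all rows, and 2 of 7 without PCN 3, beside 45.9%. Without atorvastatin 1, 7 of 7 lay above 0 with an unadjusted p under 0.05, beside 0.807% of all rows, with a median of 1.29 and none called. Rows of a pair share reads, so 7 rows amount to at most 4 loci, and these followed a similar order of libraries. In each comparison a count out of 7 is therefore not evidence from 7 separate rows, also where a percent of all rows stands beside it. The first pair of these comparisons also shares its controls, so that a low or high control moves both.

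Leaving out control 3 and atorvastatin 3 enlarged the differences from control, and with group as the only factor no chrM row was called. In PCN against control 4 of 7 rows then had an unadjusted p under 0.05, beside 7.72% of all rows. These were the control-region rows, at -1.01 ± 0.39 for the 192-bp row (edgeR, adjusted p = 0.545), and the mt-Rnr2 rows, at -0.85 ± 0.36 for the 84-bp row (adjusted p = 0.59). In atorvastatin against control 3 of 7 rows did, beside 5.52% of all rows: the control-region rows, at -1.14 ± 0.43 for the 192-bp row (edgeR, adjusted p = 0.884), and the ND2 and TrnW row, at -0.86 ± 0.39 (adjusted p = 0.894). In PCN against atorvastatin 0 of 7 did, beside 1.93% of all rows, and the mt-Rnr2 rows turned from 0.14 to -0.07.

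**Figure D2:**
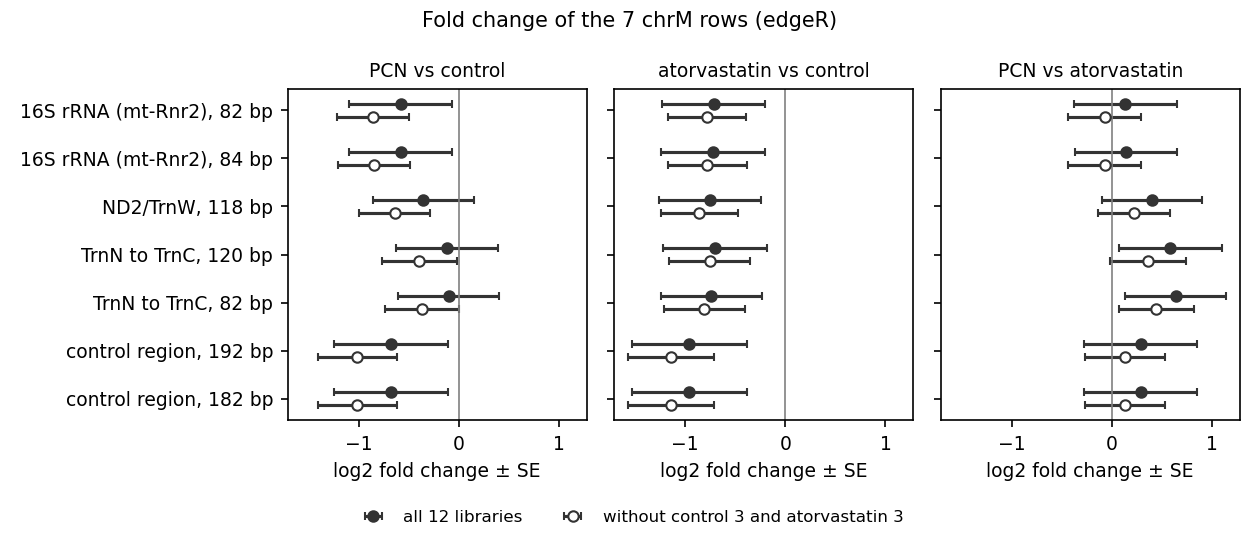
Log2 fold change (x axis, bars ± SE) of each of the 7 chrM rows (y axis) in the 3 comparisons from edgeR, with all 12 libraries (filled) and without control 3 and atorvastatin 3 (open). In both fits shown, all rows lie below 0 in the comparisons with control, and no row passed the test.

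Within mitochondrial counts, the group means at each of the 4 loci differed by less than the SD within either group compared. The control region held 58.6% ± 10.9 (SD, n = 4) of chrM counts in control, 56.6% ± 13.1 (SD, n = 4) with atorvastatin and 58.4% ± 5.69 (SD, n = 4) with PCN. The locus from TrnN to TrnC held 18.4% ± 5.59, 19.4% ± 7.10 and 20.1% ± 3.68 in the same order, and mt-Rnr2 held 14.9% ± 4.28, 15.5% ± 5.18 and 12.5% ± 3.40. The single row of ND2 and TrnW held 8.17% ± 1.43, 8.46% ± 0.960 and 8.94% ± 1.92. These percents count both rows at the 3 loci with a pair but a single row at ND2 and TrnW, and so understate the latter. With a single row per locus, ND2 and TrnW held 14.6% ± 2.23, 15.0% ± 1.35 and 15.8% ± 3.16 (SD, n = 4) in the same order of groups, and mt-Rnr2 held 13.3% ± 3.62, 13.7% ± 4.22 and 11.1% ± 2.85. ND2 and TrnW then lay above mt-Rnr2 in 9 of 12 libraries, against 0 of 12 with all rows. The control region then held 52.6% ± 10.6, 50.7% ± 12.7 and 51.9% ± 5.62. In windows of 1000 bp, each locus was a window of its own, and 0 of 4 windows passed the two-sided exact permutation test in any comparison. The adjusted p was 0.762 to 0.943 for PCN against control, 0.8 for each window of atorvastatin against control, and 0.886 for each window of PCN against atorvastatin. None of the 4 had an unadjusted p under 0.05 either.

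Single libraries differed more than groups did. The control region held 60.5%, 65.8%, 42.7% and 65.5% of chrM counts in control libraries 1 to 4. It held 59.8%, 37.6%, 67.7% and 61.3% with atorvastatin, and 55.2%, 59.8%, 52.9% and 65.8% with PCN. Control 3 and atorvastatin 2 were low and atorvastatin 3 was the highest, so the libraries that stood apart in their nuclear rows lay at opposite ends here. The locus from TrnN to TrnC, around the light-strand origin, held 16.5%, 15.2%, 26.7% and 15.1% in control. It held 17.4%, 29.9%, 14.3% and 16.1% with atorvastatin, and 25.4%, 19.4%, 18.3% and 17.2% with PCN. Control 3, atorvastatin 2 and PCN 1 were high at this locus, 1 in each group, and the other libraries lay at or below 19.4%.

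Compared per base pair, which removes the difference in width, counts at the control region were higher than the mean of the 3 other loci in 10 of 12 libraries. In control libraries 1, 2 and 4 the ratio was 1.99, 2.48 and 2.42. With atorvastatin it was 1.91, 2.72 and 2.04 in libraries 1, 3 and 4, and with PCN it was 1.66, 1.94, 1.42 and 2.48. In control 3 the ratio was 0.979 and in atorvastatin 2 it was 0.797, so that in these 2 libraries the control region was not above the mean of the other loci. In CPM per bp, the widest row of each locus in control 2 had 2.06 at the control region, 0.918 from TrnN to TrnC, 0.852 at mt-Rnr2 and 0.721 at ND2 and TrnW. In atorvastatin 2 the order was different, with 0.259 from TrnN to TrnC, 0.231 at mt-Rnr2, 0.167 at the control region and 0.140 at ND2 and TrnW. The other 38 bp of the wider TrnN row, toward TrnN, were about as densely covered as the inner 82 bp, with 3.87 against 3.59 counts per bp in control 1. The 10 bp added at the edges of the control-region pair held only 5.5 counts there, or 0.55 per bp against 7.39 in the inner row.

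**Figure D3:**
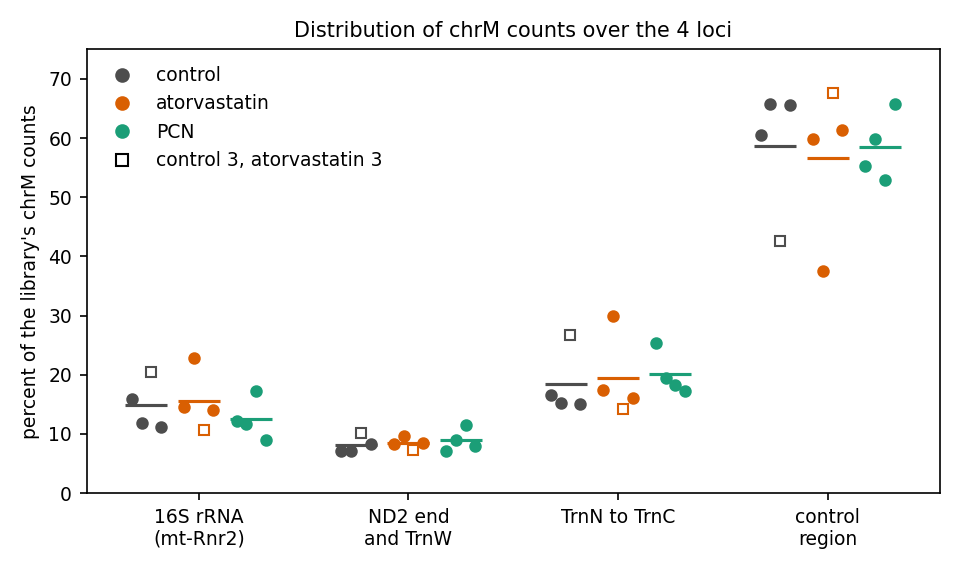
Percent of each library's chrM counts (y axis) at the 4 loci in order along the chromosome (x axis), by group; points are libraries, lines are group means of 4 libraries, and open squares are control 3 and atorvastatin 3. The control region holds 37.6% to 67.7%, with control 3 and atorvastatin 2 low.

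The mitochondrial share was set beside 4 properties of the libraries, with Benjamini-Hochberg adjustment over the 4 relations. With the log2 enhancer total, which is also the denominator of the share, Pearson's r over 12 libraries was -0.419 and Spearman's rho -0.503 (permutation p = 0.175 and 0.099, adjusted p = 0.234 and 0.198). Without control 4 and control 3, the libraries farthest from the median total, r was -0.667. The 2 largest libraries, atorvastatin 2 and atorvastatin 4, had shares of 0.0170% and 0.0332%, and the smallest, control 4, had 0.116%. With the log2 ratio of promoter to enhancer total, r was 0.623 and rho 0.552 (permutation p = 0.0296 and 0.0659, adjusted p = 0.118 and 0.198). The share has the same denominator as this ratio, so a positive relation is partly built in. This relation fell to r = 0.381 without atorvastatin 3 and PCN 2, so it rests in part on those libraries. With the percent of rows at 0 counts, r was -0.303 and rho -0.231 (permutation p = 0.367 and 0.471, adjusted p = 0.367 and 0.628), and without control 3 and control 4 it was -0.542. Without control 3 and atorvastatin 3 it turned to 0.218, so its direction rests on those libraries.

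With the median correlation with other libraries, r over all 12 was 0.514 and rho -0.0559 (permutation p = 0.0693 and 0.869, adjusted p = 0.139 and 0.869). This measure separates control 3 and atorvastatin 3 from the rest, and the positive r rests on them. Over the remaining 10, the share was lower in libraries that correlated more closely with the others, with r = -0.709 and rho = -0.709 (permutation p = 0.0179 and 0.0275, adjusted p = 0.0589 and 0.0969). Without control 4 and atorvastatin 2 it was -0.624. Over the same 10 libraries r with the log2 enhancer total was -0.674 and rho -0.648 (permutation p = 0.0294 and 0.0485, adjusted p = 0.0589 and 0.0969), and r fell to -0.374 without control 4 and atorvastatin 2. The relation to the total thus rests on those libraries. None of the 4 relations passed the threshold after adjustment. Depth is not balanced over the groups: the atorvastatin group holds the 3 largest enhancer totals. The part of depth in the differences between groups was not tested.

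**Figure D4:**
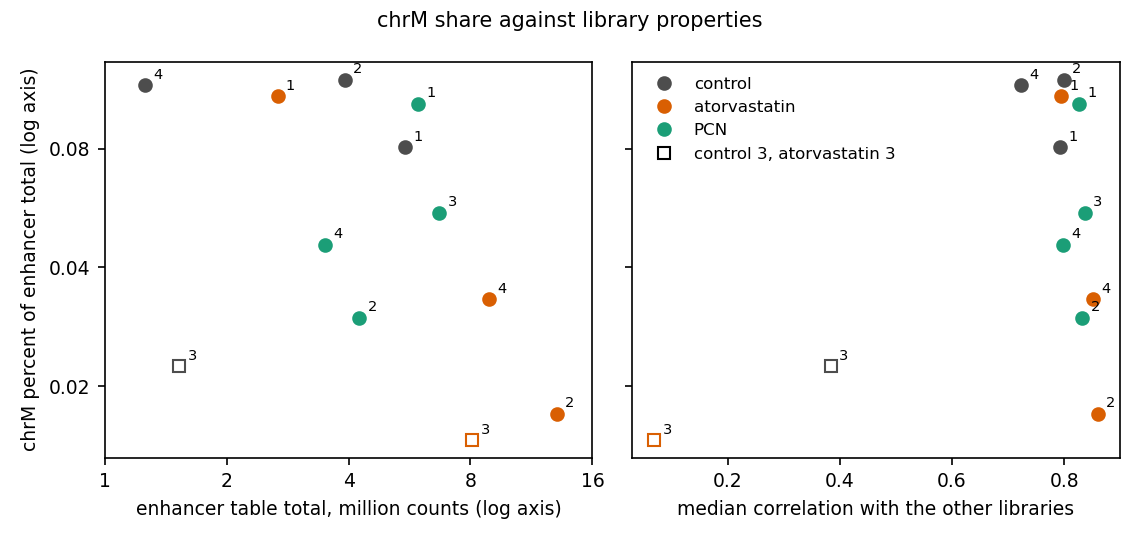
Share of chrM counts (y axis, percent, log axis) against the enhancer table total (left, log axis) and against the median correlation with the other libraries (right); points are numbered by replicate and open squares are control 3 and atorvastatin 3. The share is low in the largest libraries and in both libraries that stand apart.

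The machinery that copies, transcribes and packages mitochondrial DNA is encoded in the nucleus, and its promoters were examined as the counterpart of the chrM rows. The list held 39 genes, each represented by its promoter of highest mean CPM, and all 39 passed the low-count filter. Picked in this way, they had a median of 34.7 mean CPM against 15.6 over all promoters, and 35 of 39 lay above that median. All promoters were taken without such a choice, which favours the list, so these values do not show that the list was better covered. No promoter of the list passed edgeR's quasi-likelihood test in any comparison, beside 0% of 41908 promoters tested.

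In PCN against control, 28 of the 39 lay above 0, beside 51% of all promoters, and their log2 fold changes had a median of 0.21 against 0.01. Here and in the other comparisons the list was picked by CPM and all promoters were not, so the sets are unlike. Whether the list as a whole shifted was not tested. At an unadjusted p under 0.05 stood 3 of 39, beside 3.75% of all promoters. This count was 0 without control 3 (beside 1.54%) and 0 without PCN 4 (beside 1.4%). It was 1 without control 1 (beside 1462 of 41863 promoters) and 1 without PCN 2 (beside 729 of 42005). The count was 6 without control 4 (beside 7.9%), and 3 without both control 3 and atorvastatin 3 (beside 4.51%). Twnk, which encodes the helicase of mitochondrial replication, had 51.9, 60.0, 37.2 and 54.8 CPM in control and 63.8, 84.8, 64.1 and 80.1 CPM with PCN, a log2 difference of 0.63 ± 0.27 (edgeR, adjusted p = 0.918). Each PCN library was above each control library. How many of all promoters separate in this way was not counted, and the genes named here were picked by smallest p. Atad3a, which encodes a membrane protein associated with mitochondrial nucleoids, had 37.5, 36.4, 24.9 and 30.4 CPM in control and 42.3, 46.3, 40.7 and 48.9 CPM with PCN, a difference of 0.57 ± 0.24 with no overlap (edgeR, adjusted p = 0.918). Polg2, the accessory subunit of the mitochondrial DNA polymerase, differed by 0.63 ± 0.28 with overlapping groups (edgeR, adjusted p = 0.918). Control 3 was the lowest control for Twnk, Atad3a and Polg2, and without control 3 and atorvastatin 3 the differences were 0.51 ± 0.26, 0.46 ± 0.21 and 0.46 ± 0.22.

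Genes on the lower side in PCN against control were Polrmt, Mterf4 and Slc25a4. Polrmt, the mitochondrial RNA polymerase that also makes replication primers, had 25.6, 22.1, 46.9 and 27.4 CPM in control and 25.0, 22.3, 21.6 and 10.5 CPM with PCN, a log2 difference of -0.48 ± 0.27 (edgeR, adjusted p = 0.918). Control 3 was the highest and PCN 4 the lowest, and the groups overlapped. Without control 3 and atorvastatin 3 the difference was -0.18 ± 0.19. Mterf4, a factor of mitochondrial ribosome assembly, differed by -0.40 ± 0.24, and Slc25a4, the adenine nucleotide carrier of the inner membrane, by -0.72 ± 0.44 (edgeR, adjusted p = 0.918 for each). The Slc25a4 value rests on control 3, with 34.2 CPM against 18.7, 9.82 and 3.57 in the other controls, and was -0.20 ± 0.32 without control 3 and atorvastatin 3. Tfam, the packaging protein of mitochondrial DNA, was looked at after its values were seen, because of its role. It had 31.4, 30.2, 8.02 and 28.0 CPM in control and 22.9, 24.4, 24.0 and 20.2 CPM with PCN. The atorvastatin libraries had 27.0, 26.4, 19.0 and 29.5 CPM. Control 3 was lower than every PCN library and the other controls were higher, so the groups overlapped. A gene chosen in this way gives no test of a difference.

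In atorvastatin against control, 24 of 39 lay above 0, beside 57.3% of all promoters, with a median of 0.12 against 0.05, and 0 of 39 had an unadjusted p under 0.05, beside 1.93% of all promoters. Those of smallest p on the higher side were Polg2 (0.53 ± 0.28), Atad3a (0.39 ± 0.23) and Mterf3, a regulator of mitochondrial transcription (0.33 ± 0.23). On the lower side they were Mterf4 (-0.43 ± 0.24), Tk2, the mitochondrial thymidine kinase (-0.34 ± 0.22), and Slc25a4 (-0.67 ± 0.43). In PCN against atorvastatin, 29 of 39 lay above 0, beside 47.9% of all promoters, with a median of 0.11 against -0.02, and 0 of 39 had an unadjusted p under 0.05, beside 0.73% of all promoters. Ppargc1a, a coactivator of mitochondrial biogenesis (0.48 ± 0.34), Tefm, the mitochondrial transcription elongation factor (0.39 ± 0.29), and Tymp, thymidine phosphorylase (0.30 ± 0.30), had the smallest p on the higher side. Polrmt (-0.37 ± 0.27), Rnaseh1, which removes RNA from hybrids with DNA (-0.18 ± 0.34), and Lonp1, a matrix protease (-0.11 ± 0.21), had the smallest p on the lower side. Without control 3 and atorvastatin 3 the medians were 0.12 for PCN against control (25 of 39 above 0, beside 48.3% of all promoters) and 0.10 for atorvastatin against control (26 of 39, beside 47.8%), and for PCN against atorvastatin the median was -0.0086, with 19 of 39 above 0, beside 52.8% of all promoters.

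**Figure D5:**
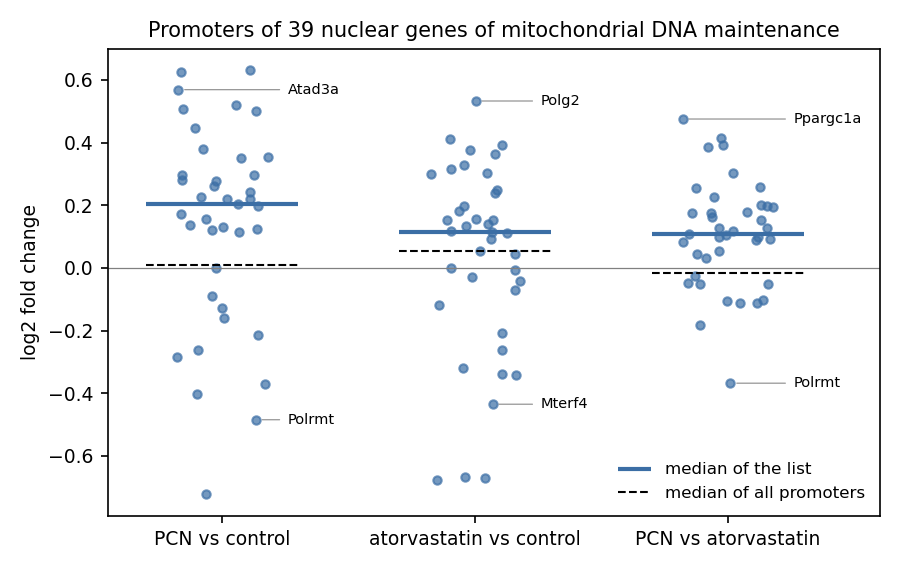
Log2 fold change (y axis) of the promoters of 39 nuclear genes of mitochondrial DNA maintenance in the 3 comparisons (x axis); points are genes, solid lines the medians of the list and dashed lines those of all promoters. The list medians are 0.21, 0.12 and 0.11, no promoter passed the test, and the labelled genes have the smallest p on each side.

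The Polrmt promoter is shown because it is the member of smallest p on the lower side in 2 of the 3 comparisons and holds a motif known for the respiratory factor NRF1. It is the RefSeq window of 300 bases on the minus strand of chr10:79746532-79746831 (GRCm38.p6), from 250 bases before the start of transcription to 50 after it, with motif matches in capitals.
Polrmt: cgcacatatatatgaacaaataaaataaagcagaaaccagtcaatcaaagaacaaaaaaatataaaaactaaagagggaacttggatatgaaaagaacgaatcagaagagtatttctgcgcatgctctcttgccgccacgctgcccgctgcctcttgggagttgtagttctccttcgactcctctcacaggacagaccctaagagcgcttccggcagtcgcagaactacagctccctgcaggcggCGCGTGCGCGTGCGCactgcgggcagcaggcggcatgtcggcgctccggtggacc
The motif searched was GCGCANGCG, with its reverse complement CGCNTGCGC, on both strands, and the window holds 2 matches that overlap. Of the 32 list genes with a window, 6 (Tfb2m, Exog, Dna2, Polrmt, Lig3 and Esrra) held it, or 18.8%, beside 7.03% of 27025 genes. A match describes these letters only, and binding of the factor was not measured.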

How the data were processed

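ATAC-seq of mouse liver was deposited as an enhancer table and a promoter table, each with 12 libraries in 3 groups of 4. Per the labels' protocols, tagmentation ran for 45 min at 37 °C on 100000 nuclei from liver pieces of 100 to 160 mg. The submitters' processing notes name mm10, HOMER 4.10, bedtools 2.30.0, STAR 2.7.9a and Trimmomatic, without roles. The rule that defined an enhancer row is not given in the sources used here. The deposited values are expected counts in steps of 0.5, not normalized by the authors as far as the values show.

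The chrM rows were summed per library and divided by the table total. Shares and windows of 1000 bp were compared by exact permutation tests. Both tables were rounded and fitted whole with edgeR 4.0.16 in R 4.3.3 (TMM; filterByExpr, minimum count 10 and total 15; group as the only factor). SE is the size of the log2 fold change divided by the root of F. Relations used 100000 permutations. The threshold was an adjusted p of 0.05 (Benjamini-Hochberg), and the fit was tested on simulated data. All chrM rows are named; list genes are named by the 3 smallest p values in each direction. The alternatives were DESeq2 1.42.0, its size factors, library totals, other filters, denominators, windows and row sets, a replicate block, and left-out libraries. Members and lists were chosen with earlier results of these data known. A pravastatin group is not analysed here.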

Additional observations from a re-analysis of the deposited data

Results flagged for a closer look

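In the control group, the highest or lowest library stood apart from the other 3 for 2 of the quantities examined. Control 3 held 26.7% of its chrM counts at the locus from TrnN to TrnC, against 15.1% to 16.5% in the other controls. In the 84-bp mt-Rnr2 row control 3 had 23.2 CPM, against 64.2 to 71.6 CPM in the others. In all, 27 groups of 4 libraries were examined by Dixon's criterion, and chance alone marks about 5% of groups. The 344.5 chrM counts of control 3 are the fewest of the 12 libraries.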

How the results depend on the processing

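The direction of each of the 3 share differences held under every alternative, and none passed the threshold. Leaving out 1 library in turn gave -0.97 to -0.15 for PCN against control, -1.81 to -0.84 for atorvastatin against control and 0.42 to 1.39 for PCN against atorvastatin. No chrM row was 500 bp or wider, windows of 500 bp gave the same 4 windows, and windows of 2000 bp merged ND2 and TrnW with TrnN to TrnC. With library totals in place of TMM, the median over all enhancer rows in PCN against control moved from 0.17 to 0.05 and that over all promoters from 0.01 to -0.10, and all 7 chrM rows stayed below 0.

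Same replicate numbers were not shown to pair libraries: 7 of 12 pairs correlated over 0.1 in enhancers (-0.0194 to 0.16) and 7 of 12 in promoters (-0.441 to 0.509). For enhancers 10 of 12 libraries correlated best with their own number, and for promoters 6 of 12. That is a hint from the data and not the design. If the numbers do mark pairs, the main fit, with group as the only factor, ignored them. With the replicate block the share differences had exact p = 0.625, 0.25 and 0.25 (smallest possible 0.125), and edgeR called 0 chrM rows, with 7 of 7 at an unadjusted p under 0.05 in atorvastatin against control, beside 1.47% of all rows. With the block and without control 3 and atorvastatin 3, edgeR called 2 of 7 rows in PCN against control (mt-Rnr2, -1.29, adjusted p = 0.0462), beside 0.0104% of all rows (20 of 192874). In atorvastatin against control it called 2 of 7 (control region, -1.77, adjusted p = 0.00966), beside 0.00207% (4 of 192874). In each case the 2 rows are a pair at a single locus. PCN 3 is the only library with its number in that fit, so the block absorbs it. It then adds nothing to the group differences.

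Some directions turned, and the cause was not tested. Without a low-count filter the rows from TrnN to TrnC in PCN against control were 0.088 (82 bp) and 0.067 (120 bp). In PCN against atorvastatin the mt-Rnr2 rows were -0.073 and -0.071 without control 3 and atorvastatin 3, and -0.22 and -0.22 with the block as well. The percent of chrM counts from TrnN to TrnC then differed by -1.04. The relation of the share to rows at 0 counts was 0.218 and that to the median correlation -0.709 without those libraries, and that to the promoter ratio was 0.381 without atorvastatin 3 and PCN 2.

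Leaving out 1 library in turn, log2 fold changes in PCN against control ran from -0.75 to 0.21 and -0.78 to 0.20 for the 82- and 120-bp rows from TrnN to TrnC. In PCN against atorvastatin they ran from -0.038 to 1.47 and -0.097 to 1.49 for these rows, from -0.25 to 1.05 and -0.26 to 1.03 for the 84- and 82-bp mt-Rnr2 rows, and from -0.11 to 1.29 and -0.11 to 1.28 for the 182- and 192-bp control-region rows. Differences in percent of chrM counts, with 1 library or control 3 and atorvastatin 3 left out, ran as follows. In PCN against control they were -5.46 to 2.24 at the control region, -0.069 to 4.49 from TrnN to TrnC and -0.11 to 1.44 at ND2. In atorvastatin against control they were -11.0 to 4.32 at the control region, -2.45 to 5.52 from TrnN to TrnC, -1.75 to 4.19 at mt-Rnr2 and -0.13 to 1.31 at ND2. In PCN against atorvastatin they were -4.48 to 5.56, -1.11 to 4.16 and -0.40 to 1.07 at the control region, from TrnN to TrnC and at ND2.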

Other observations

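The wider row of the mt-Rnr2 pair held fewer counts than the row inside it in 3 libraries: 254 against 255.5 in atorvastatin 2, 62 against 64 in atorvastatin 3 and 74 against 74.5 in PCN 2. The same occurred in 1058 of 219774 nested pairs of the whole enhancer table (0.481%). Mouse chromosome 1 holds a long nuclear copy of part of the mitochondrial genome, and 0 enhancer rows lay in the window of that chromosome examined for it.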
